A study of Homo sapiens with 12 samples.

Results

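The IFIT family comprises *IFIT1*, *IFIT2*, *IFIT3* and *IFIT5*, 4 of the 58302 genes listed in the expression tables, and was selected on the measured values analysed here for higher levels after NUF2 knockdown in 1 renal carcinoma cell line and not in the other. The levels and fold changes of these 4 genes are therefore a description and carry no test. The members were matched by gene symbol, and all 4 were high enough to be fitted in 769-P and in ACHN.

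The libraries came from 769-P and ACHN, established human cell lines that the labels name as clear cell renal cell carcinoma lines. Both lines were transfected for 48 h with si-NUF2, a mixture of siRNAs against *NUF2*, which encodes a kinetochore protein, or with si-NC, a negative control siRNA. Each line thus had a si-NUF2 group and a si-NC group, which made 4 groups of 3 libraries. Cells of both arms carried an siRNA and transfection reagent, and no untransfected cells were analysed here. Because the siRNAs against *NUF2* were given as a mixture, the response to each of them cannot be told apart. No source said that the replicates came from separate cultures, so p-values measure only the spread between these libraries.

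Recovered read totals ran from 28624650 to 37839177 per library. *NUF2* stood at 4.17, 3.86 and 3.01 FPKM (fragments scaled to exon length and library size) in the 769-P si-NUF2 libraries against 19.4, 17.8 and 17.8 FPKM with si-NC. In ACHN it stood at 2.16, 5.14 and 4.25 FPKM against 11.6, 15.0 and 14.8 FPKM. Every si-NUF2 library thus lay below every si-NC library of its line, with a fitted log2 fold change of -2.29 ± 0.13 in 769-P (SE, limma with Benjamini-Hochberg adjusted p = 0.00141) and -1.88 ± 0.32 in ACHN (adjusted p = 0.228, and 0.0127 with the replicate number as a block). Among 11 renal epithelial markers the summed level was 463 to 529 FPKM in the libraries of 769-P and 518 to 764 FPKM in those of ACHN. Of these markers *PAX8* fell by 0.44 on the log2 scale in 769-P, and with the replicate block *CDH1*, *KRT8* and *KRT18* rose (0.69, 0.61 and 0.59) in ACHN. Their part in the results on the family was not tested. *CA9*, a carbonic anhydrase typical of clear cell tumours, reached no more than 0.121 FPKM in any library. The 8 leukocyte markers summed to between 0.0320 and 0.434 FPKM per library, with *CD3E* and *CLEC4C* listed at 0 throughout.

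IFIT proteins are built of tetratricopeptide repeats and belong to the effectors that cells make in response to interferon. IFIT1 binds viral mRNA whose cap lacks 2′-O methylation and keeps it from being translated, IFIT3 binds IFIT1 and stabilises it on RNA, IFIT2 binds AU-rich RNA and can join complexes with both, and IFIT5 binds RNA with a 5′-triphosphate end. Their genes are switched on by the ISGF3 complex, which includes STAT2 and IRF9, and more directly by IRF3, through interferon-stimulated response elements in their promoters.

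All members lie on the plus strand of chromosome 10 (GRCh38, GENCODE release 29), in the order *IFIT2* (ENSG00000119922, chr10:89283694-89309276), *IFIT3* (ENSG00000119917, chr10:89327894-89340971), *IFIT1* (ENSG00000185745, chr10:89392546-89406486) and *IFIT5* (ENSG00000152778, chr10:89414586-89421001). *IFIT1B* (ENSG00000204010, chr10:89378056-89385205), a paralogue, sits between *IFIT3* and *IFIT1*. The merged exons span 4613 bases for *IFIT1*, 4101 for *IFIT2*, 2640 for *IFIT3* and 4015 for *IFIT5*. *IFIT2* shares 356 exon bases, 8.68% of its length, with the antisense-type gene *AL353751.1* and 65 with *LIPA*, a lysosomal lipase gene on the opposite strand. The strand setting and the handling of shared bases in the counting are not given in the sources used here, so reads from these bases of *IFIT2* cannot be told apart from those of the other genes. Of the 50-base stretches of each member's transcripts, 1.02% (*IFIT1*), 7.91% (*IFIT2*), 3.64% (*IFIT3*) and 0% (*IFIT5*) occur in transcripts of another gene, and 38 of those of *IFIT1* occur in *IFIT1B*.

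The promoters are shown because the family is known for the interferon-stimulated response elements in them, and that of *IFIT1B* is set beside them as the paralogue inside the cluster. Each line gives 180 bases before to 20 bases after an annotated start site, from RefSeq promoters of build GRCh38.p14, plus strand. Capitals mark each match to the core of the interferon-stimulated response element, GAAANNGAAA, or to its reverse complement TTTCNNTTTC. The stretches are chr10:89392443-89392642 (*IFIT1*), chr10:89327817-89328016 (*IFIT3*, upstream start), chr10:89332349-89332548 (*IFIT3*, downstream start), chr10:89414388-89414587 (*IFIT5*) and chr10:89377876-89378075 (*IFIT1B*). *IFIT2* had no entry.
IFIT1: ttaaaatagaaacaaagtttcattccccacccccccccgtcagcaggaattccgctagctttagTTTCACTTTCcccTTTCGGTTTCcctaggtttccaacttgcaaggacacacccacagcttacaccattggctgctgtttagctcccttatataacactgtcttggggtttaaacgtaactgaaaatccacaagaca
IFIT3, upstream start: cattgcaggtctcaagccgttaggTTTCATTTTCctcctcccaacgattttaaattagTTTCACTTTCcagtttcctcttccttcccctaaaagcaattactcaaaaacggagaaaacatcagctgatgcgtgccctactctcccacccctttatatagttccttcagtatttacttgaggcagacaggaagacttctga
IFIT3, downstream start: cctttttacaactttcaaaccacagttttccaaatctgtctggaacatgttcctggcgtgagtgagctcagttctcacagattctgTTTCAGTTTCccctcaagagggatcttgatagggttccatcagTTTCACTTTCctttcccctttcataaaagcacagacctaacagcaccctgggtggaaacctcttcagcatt
IFIT5: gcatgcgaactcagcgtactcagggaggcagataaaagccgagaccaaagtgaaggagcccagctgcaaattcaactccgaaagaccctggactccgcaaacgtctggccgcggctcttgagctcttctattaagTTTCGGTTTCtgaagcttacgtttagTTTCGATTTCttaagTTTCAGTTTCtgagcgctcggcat
IFIT1B: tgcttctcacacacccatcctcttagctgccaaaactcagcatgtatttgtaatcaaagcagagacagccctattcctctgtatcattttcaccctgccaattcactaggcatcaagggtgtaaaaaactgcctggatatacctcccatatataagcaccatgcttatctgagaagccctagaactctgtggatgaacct

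The *IFIT1* promoter held 2 matches, which began 116 and 103 bases before the start site. Each *IFIT3* promoter also held 2, 156 and 122 bases before the upstream start and 94 and 51 bases before the downstream start. *IFIT5* held 3 matches, 45, 19 and 4 bases before its start, the last of them running over the start site. All of these matches read TTTCNNTTTC on the plus strand, and none overlapped another. Of all 35116 promoters of 300 bases, searched on both strands, 3.57% held at least 1 match and 0.259% held 2 or more. Among 40 other interferon-stimulated effectors with a promoter entry, 28 held a match in at least 1 promoter, or 70.0%, beside 4.38% of all 27305 genes counted the same way. No match in the *IFIT1B* window says only that these letters are not there.

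*IFIT1* differed most between the siRNAs in 769-P. Its level was 19.2, 24.3 and 6.29 FPKM in the si-NUF2 replicates 1, 2 and 3, against 2.72, 2.87 and 1.37 FPKM with si-NC. In ACHN it was 1.51, 1.84 and 1.70 FPKM with si-NUF2 against 1.43, 2.42 and 1.98 FPKM with si-NC. The groups of 769-P did not overlap. The members were chosen for this rise, so groups lying apart are a description, here and for the other members. The share of all genes with groups apart was not determined. The lowest si-NUF2 library of 769-P, replicate 3, lay well under the others, and the same-numbered si-NC library was also the lowest of its group. In ACHN the si-NUF2 libraries lay within the range of the si-NC libraries. The mean went from 2.32 ± 0.828 (SD, n = 3) to 16.6 ± 9.28 FPKM (SD, n = 3) in 769-P, a ratio of means of 7.15, and from 1.94 ± 0.496 to 1.68 ± 0.165 FPKM (SD, n = 3) in ACHN, a ratio of 0.866. As these are bulk samples, more cells with the transcript and more transcript per cell cannot be told apart.

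*IFIT3*, the partner of IFIT1, was the most abundant member by FPKM in 11 of the 12 libraries. It stood at 25.5, 31.3 and 11.4 FPKM in 769-P si-NUF2 against 8.72, 9.50 and 8.97 FPKM in 769-P si-NC. ACHN gave 8.61, 6.15 and 13.0 FPKM with si-NUF2 against 13.5, 8.84 and 17.4 FPKM with si-NC. The groups of 769-P did not overlap, with replicate 3 again the closest to the controls. Those of ACHN overlapped, but each si-NUF2 library was below the si-NC library of the same number. The ratio of means was 2.51 in 769-P and 0.699 in ACHN.

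*IFIT2*, the binder of AU-rich RNA, was the least abundant member in 769-P si-NUF2 cells. Its level was 3.88, 5.56 and 2.71 FPKM in 769-P si-NUF2 against 1.87, 2.58 and 1.68 FPKM in 769-P si-NC. In ACHN the values were 4.19, 3.77 and 4.89 FPKM with si-NUF2 against 5.53, 5.28 and 6.47 FPKM with si-NC. Neither pair of groups overlapped, and the direction was opposite, with every si-NUF2 library higher in 769-P and every si-NUF2 library lower in ACHN. The ratios of means were 1.98 and 0.743.

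*IFIT5*, the triphosphate-RNA binder, was at 11.0, 12.5 and 6.06 FPKM in 769-P si-NUF2 against 4.46, 5.13 and 4.25 FPKM in 769-P si-NC. ACHN libraries gave 6.28, 6.53 and 8.54 FPKM with si-NUF2 against 6.51, 6.31 and 10.3 FPKM with si-NC. The groups were apart in 769-P and overlapped in ACHN. The ratio of means was 2.13 in 769-P and 0.923 in ACHN. *IFIT1B* was seen in 3 libraries only, with 1, 1 and 4 reads, and did not exceed 0.0592 FPKM.

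**Figure D1:**
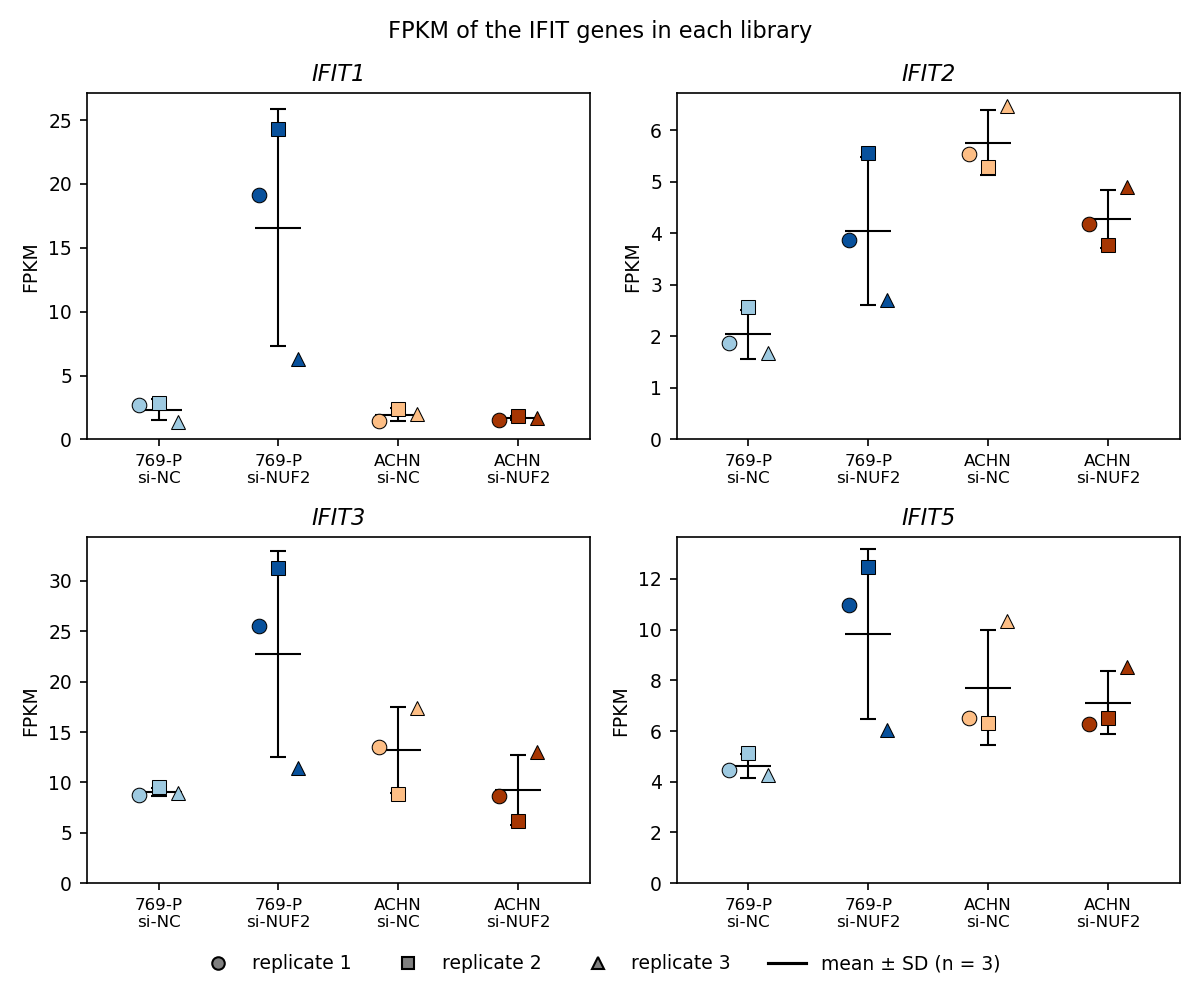
FPKM of each IFIT gene (y axes, linear, from 0) in the 4 groups of 3 libraries (x axes), with marker shapes for replicates 1 to 3 and black lines for the mean ± SD. All 3 si-NUF2 libraries of 769-P lie above the 3 si-NC libraries for each gene, a rise for which the family was chosen. Replicate 3 is the lowest of these si-NUF2 libraries, whereas in ACHN the si-NUF2 means are below the si-NC means.

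On the fitted log2 scale, which adds 0.1 to the scaled FPKM, the 769-P fold changes were 2.66 ± 0.52 for *IFIT1* (SE), 1.21 ± 0.34 for *IFIT3*, 1.03 ± 0.26 for *IFIT5* and 0.93 ± 0.27 for *IFIT2*. By size of rise these ranked 4, 117, 189 and 247 among 14157 genes tested in 769-P. The ACHN fold changes were -0.16 ± 0.21 for *IFIT1*, -0.52 ± 0.35 for *IFIT3*, -0.08 ± 0.23 for *IFIT5* and -0.41 ± 0.14 for *IFIT2* (SE). The fitted difference between the lines was 2.82 ± 0.63 for *IFIT1*, 1.73 ± 0.54 for *IFIT3*, 1.34 ± 0.34 for *IFIT2* and 1.11 ± 0.38 for *IFIT5*. Each member was thus above its control in 769-P. In ACHN each fitted value was below 0 and smaller in size, and those of *IFIT1* and *IFIT5* were within their SE of 0.

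Same-numbered libraries deviated together, so the pairs of one number were also compared with each other on the deposited FPKM. In 769-P the log2 differences for *IFIT1* were 2.77, 3.04 and 2.12 in pairs 1, 2 and 3, and for *IFIT2* they were 1.01, 1.08 and 0.66. For *IFIT3* they were 1.54, 1.71 and 0.34, and for *IFIT5* 1.28, 1.26 and 0.50. All 12 of these values are positive, and pair 3 gave the smallest for every member. In ACHN *IFIT2* differed by -0.39, -0.48 and -0.40 and *IFIT3* by -0.64, -0.52 and -0.41, while *IFIT1* (0.08, -0.38 and -0.21) and *IFIT5* (-0.05, 0.05 and -0.27) were of mixed sign. With the replicate number as a block, the SE in 769-P fell to 0.18 for *IFIT1*, 0.10 for *IFIT2*, 0.27 for *IFIT3* and 0.17 for *IFIT5*, with the same fold changes. Without the 769-P si-NUF2 replicate 3, the 769-P fold changes were 3.25 for *IFIT1*, 1.18 for *IFIT2*, 1.65 for *IFIT3* and 1.34 for *IFIT5*.

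**Figure D2:**
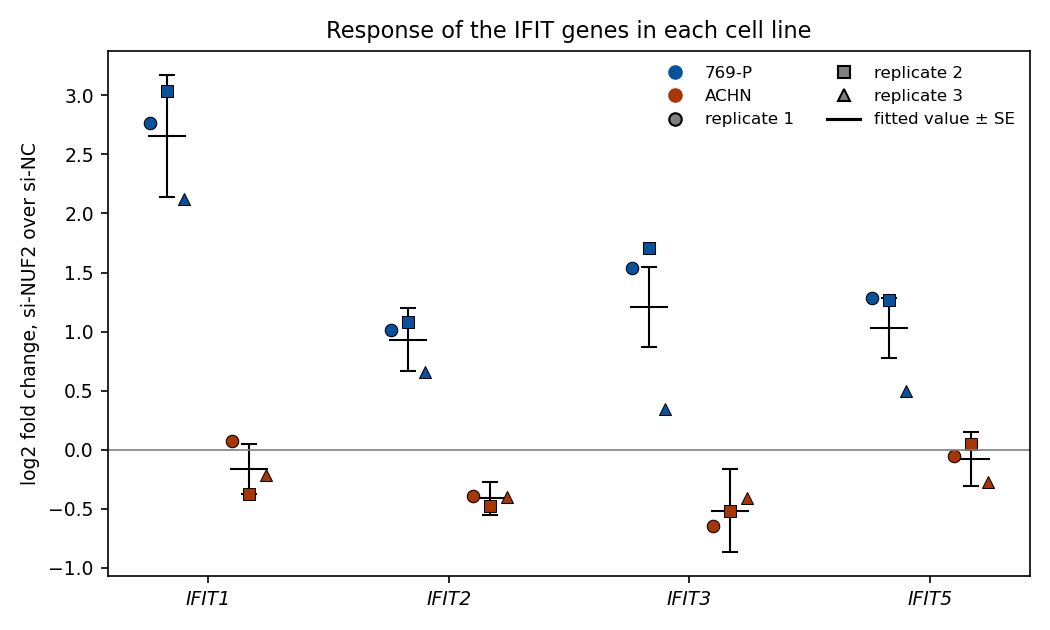
Log2 fold change of si-NUF2 over si-NC (y axis) for each IFIT gene (x axis) in 769-P and ACHN, with marker shapes for the 3 same-numbered pairs and black lines for the fitted value ± SE. The 769-P pairs lie between 0.34 and 3.04, and the ACHN pairs between -0.64 and 0.08.

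The make-up of the family also differed between groups. Levels of different genes are compared here as FPKM, which is per length of exon. The summed FPKM of the members was 59.6, 73.6 and 26.4 in 769-P si-NUF2, 17.8, 20.1 and 16.3 in 769-P si-NC, 20.6, 18.3 and 28.2 in ACHN si-NUF2 and 27.0, 22.8 and 36.2 in ACHN si-NC. *IFIT1* held 32.2%, 33.0% and 23.8% of that sum in the 769-P si-NUF2 libraries and 15.3%, 14.3% and 8.39% in the si-NC libraries, so its share was larger in every si-NUF2 library. In ACHN its share was between 5.30% and 10.6% in all 6 libraries. The ratio of *IFIT1* to *IFIT3*, whose proteins bind each other, was 0.693 ± 0.123 (SD, n = 3) in 769-P si-NUF2, 0.255 ± 0.0896 in 769-P si-NC, 0.202 ± 0.0876 in ACHN si-NUF2 and 0.165 ± 0.0947 in ACHN si-NC.

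The order of the levels was *IFIT3*, *IFIT1*, *IFIT5*, *IFIT2* in all 3 libraries of 769-P si-NUF2. *IFIT1* was in the third or last place in each of the other 9 libraries, and in the last place in all 6 libraries of ACHN. Across groups, the *IFIT1* mean was highest in 769-P si-NUF2, and the other 3 groups overlapped with their neighbours in the order. For *IFIT2* the order of means was ACHN si-NC, ACHN si-NUF2, 769-P si-NUF2 and 769-P si-NC, and only the middle neighbours overlapped. For *IFIT3* every group overlapped with the next, and for *IFIT5* only 769-P si-NC was apart from the group above it. In control cells *IFIT2* was at 2.04 ± 0.473 FPKM in 769-P and 5.76 ± 0.624 FPKM in ACHN (SD, n = 3), and *IFIT5* was at 4.62 ± 0.460 FPKM in 769-P and 7.71 ± 2.27 FPKM in ACHN (SD, n = 3), both without overlap between the lines. The si-NC ranges of *IFIT1* and *IFIT3* overlapped between the lines.

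**Figure D3:**
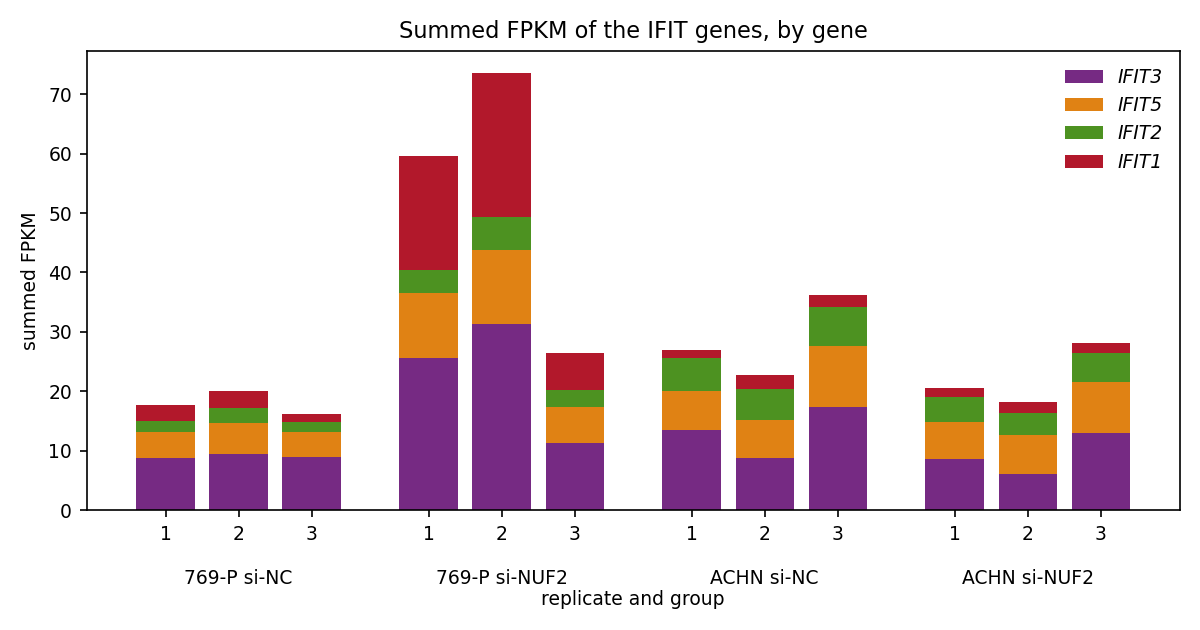
Summed FPKM of the 4 IFIT genes (y axis, linear, from 0) in each library (x axis), stacked by gene. The sum is 26.4 to 73.6 in 769-P si-NUF2 and 16.3 to 36.2 in the other 9 libraries, and the *IFIT1* part is largest in 769-P si-NUF2.

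The other effectors that interferon induces were compared next, 48 genes outside the family such as the OAS synthetases, which make the signal that activates RNase L. Of 35 tested in 769-P, 12 rose and 0 fell (limma with Benjamini-Hochberg adjustment over all genes), and with the replicate block 31 rose and 0 fell. Over all genes tested in 769-P, 5.32% were called higher and 4.58% lower, or 13.9% and 13.7% with the block. For 6 of the 35, *OAS2*, *OASL*, *IFI27*, *HERC5*, *HERC6* and *UBE2L6*, fewer than 3 si-NC libraries reached the filter's 0.5 FPKM, so they passed the filter with the help of higher si-NUF2 libraries, and their calls are no support for a difference. In a split made after the values were seen, of the 29 with 0.5 FPKM in all 3 si-NC libraries, 11 rose, or 25 with the block. The median log2 fold change of the 29 was 0.98 beside -0.01 over all genes. Leaving out the si-NUF2 replicate 2 gave 5 calls and leaving out replicate 3 gave 25. The number was 7 without si-NUF2 replicate 1, 6 without si-NC replicate 2 and 6 without si-NC replicate 3.

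*IFI44*, an interferon-induced protein of the cytoplasm, was at 29.2, 38.5 and 14.1 FPKM in 769-P si-NUF2 against 4.76, 5.08 and 2.27 FPKM with si-NC, a log2 fold change of 2.70 ± 0.43 (SE, limma, Benjamini-Hochberg adjusted p = 0.0148, and 8.96e-08 to 0.0466 over the alternatives). *OASL*, an OAS-like protein that aids RIG-I, was at 2.28, 3.64 and 0.767 FPKM against 0.367, 0.505 and 0.193 FPKM. *SP110*, a nuclear body protein, was at 4.93, 5.20 and 3.70 FPKM against 1.65, 1.33 and 1.39 FPKM. None of the 3 genes overlapped between the groups. They were picked as the called effectors with the largest rise, so this adds no support. As in the family, the si-NUF2 replicate 3 was the lowest. *SP110* rose by 1.60 ± 0.16 (SE, limma with Benjamini-Hochberg adjusted p = 0.00487). The fitted log2 fold change of *OASL* was 2.19 ± 0.54 and is given without its p, since only 1 of its si-NC libraries reached the filter's 0.5 FPKM.

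In ACHN, 36 of the effectors were tested, of which 0 were called in either direction by limma, 0 had an unadjusted p under 0.05 and 0 were called by limma-voom on recovered reads. Over all genes 0% were called in either direction (1231 genes at an unadjusted p under 0.05, and 0 calls by limma-voom), while with the block it was 6.65% higher and 5.09% lower. With the block 1 effector was called, *PARP12*, an ADP-ribosyltransferase, which fell by 0.35 on the log2 scale. The median effector fold change in ACHN was -0.07, beside 0.00 over all genes. For the difference between the lines, an interaction term in 1 fit of all libraries, 0 of 39 effectors passed, 26 of them at an unadjusted p under 0.05. Over all genes 0% were called higher or lower in 769-P (761 at an unadjusted p under 0.05, and 0 by limma-voom). With the block, 21 of the 39 had a higher response in 769-P and 0 a lower one, against 0.887% and 0.557% of all genes, and 15 of these 21 were among the 29 that reached 0.5 FPKM in every 769-P si-NC library.

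**Figure D4:**
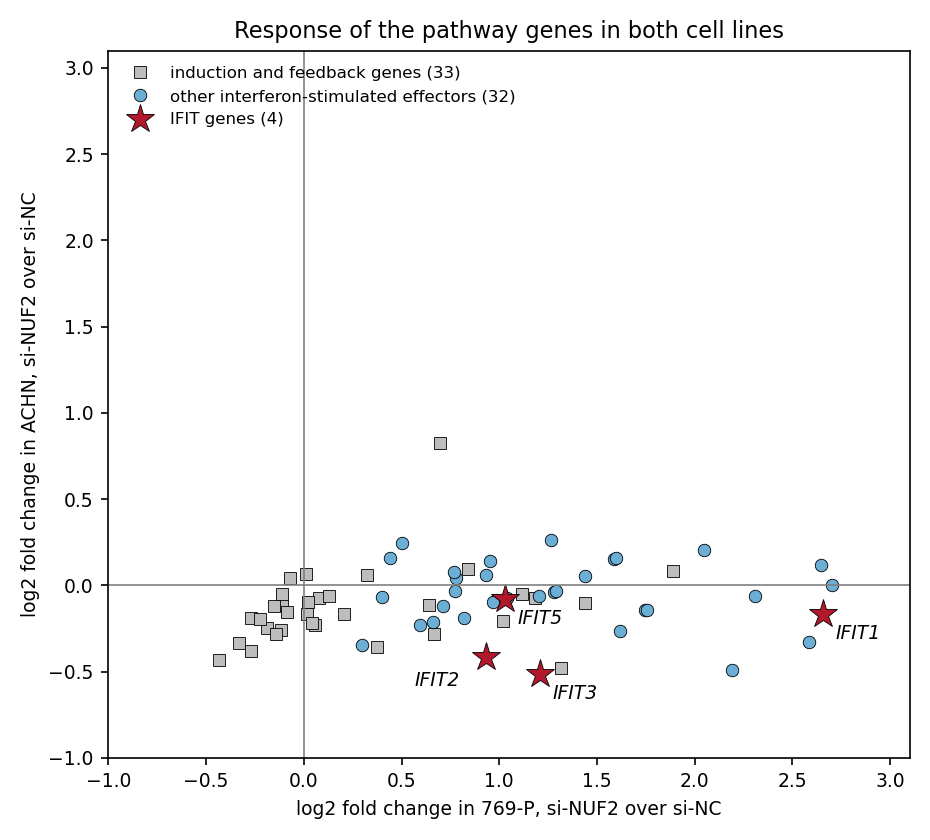
Log2 fold change of si-NUF2 over si-NC in 769-P (x axis) and in ACHN (y axis) for the 4 IFIT genes (stars), 32 other effectors (circles) and 33 induction and feedback genes (squares) tested in both lines. The stars and circles spread from 0.30 to 2.70 along the 769-P axis and stay between -0.52 and 0.26 along the ACHN axis.

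The genes whose pattern was most like that of the family were ranked by Pearson correlation with the mean of the 4 standardised members over the 12 libraries, which share cell line, siRNA and library. Of 16336 genes, the 10 highest were *IFI44L* (r = 0.948), *OAS2* (0.938), *IFI35* (0.937), *OASL* (0.935), *DHX58* (0.926), *IFI16* (0.925), *HERC6* (0.911), *DDX60L* (0.908), *DDX60* (0.900) and *IFIH1* (0.900). *IFI44L* was at 1.62, 2.78 and 0.448 FPKM in 769-P si-NUF2 and at no more than 0.225 FPKM with si-NC, which left it below the filter in that line. *OAS2* was at 3.11, 3.21 and 0.540 FPKM against 0.304, 0.284 and 0.108 FPKM. In ACHN *OAS2* ran from 0.480 to 2.62 FPKM with both siRNAs, and the groups overlapped. When each line was centred on its own mean, 5 of the 10 genes stayed among the 10 highest, and *DHX58* came first (r = 0.975). Within the family, *IFIT1* and *IFIT2* were the least alike over the 12 libraries (r = 0.12) and *IFIT3* and *IFIT5* the most (r = 0.84). With each line centred on its own mean, *IFIT1* and *IFIT2* correlated with the family mean, to which each contributes, at r = 0.93 and 0.97.

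Among the sensors of viral RNA and DNA and the adaptors and kinases that pass their signal on, 12 of 14 genes were tested in 769-P, where 4 rose and 1 fell (5.32% and 4.58% of all genes). *DDX58*, which encodes RIG-I, was at 12.3, 15.6 and 7.47 FPKM with si-NUF2 against 5.28, 4.70 and 5.62 FPKM with si-NC, and *DHX58*, its relative LGP2, was at 6.65, 9.11 and 3.98 FPKM against 2.50, 2.57 and 1.78 FPKM. The groups were apart for both. Both were picked among the called sensors with the largest rise, so this adds no support. *DDX60*, a helicase that promotes RIG-I signalling, rose by 1.18 ± 0.26 on the log2 scale. *TRAF3*, an adaptor of the pathway, rose by 0.70 ± 0.07 in 769-P and, with the block, by 0.82 in ACHN, and *MAVS*, the mitochondrial adaptor of RIG-I, fell by 0.33 in 769-P and, with the block, by 0.33 in ACHN. *IFIH1*, which encodes MDA5, gave 1.02 ± 0.26 on the log2 scale in 769-P (limma, Benjamini-Hochberg adjusted p = 0.0521 without and 0.0329 including the block, within 0.0146 to 0.140 for all alternatives) and -0.21 ± 0.24 in ACHN.

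Of 9 transcription factors tested in 769-P, 0 were called without the block (3 at an unadjusted p under 0.05, and 0 by limma-voom). *IRF7*, the factor that amplifies interferon production, was at 21.3, 24.4 and 8.81 FPKM with si-NUF2 against 8.38, 7.57 and 4.66 FPKM with si-NC in the 769-P libraries, and at 1.49, 2.05 and 3.18 against 2.90, 2.69 and 3.61 FPKM in those of ACHN. The groups were apart in 769-P and overlapped in ACHN. With the block, *IRF7* rose in 769-P (log2 fold change 1.32, limma with Benjamini-Hochberg adjusted p = 0.0076, or 0.0851 without the block and 1.15e-05 to 0.222 for all alternatives), and its difference between the lines passed as well. With the block 2 of the 9 rose and 0 fell in 769-P, beside 13.9% and 13.7% of all genes. Of 8 tested in ACHN, 0 rose and 3 fell with the block, beside 6.65% and 5.09%. Among these, *STAT2* and *IRF2*, a repressor of the same elements, fell by 0.36 and 0.28. In 769-P the pairs differed by 0.42, 0.63 and 0.03 for *STAT2* and by -0.12, -0.06 and -0.29 for *IRF2*, and the groups of both overlapped.

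*IRF9*, the DNA-binding part of ISGF3, stayed low, at 0.368 to 0.916 FPKM in 769-P si-NUF2 and 0.326 to 0.519 FPKM in si-NC, with overlap. The ACHN si-NUF2 libraries gave 0.209, 0.175 and 0.185 FPKM and those of si-NC 0.336, 0.308 and 0.277 FPKM, so that each si-NUF2 library lay below each si-NC library, and it was too low to be tested there. *IRF3* had log2 fold changes of 0.01 ± 0.13 in 769-P and 0.07 ± 0.08 in ACHN, and *IRF1* of -0.44 ± 0.22 and -0.43 ± 0.73. Among the receptors and Janus kinases, 8 of 9 were tested in 769-P, where 1 rose and 0 fell beside 5.32% and 4.58% of all genes. The riser was *JAK1*, the kinase shared by the interferon receptors (0.32 ± 0.08). With the block 1 rose and 2 fell beside 13.9% and 13.7%. Of the 8 fold changes 2 were positive and 6 negative, with a median of -0.17. Not tested in 769-P was *IFNLR1*, a receptor gene for type III interferons. It was listed at 0 FPKM in all libraries of 769-P and at 1.24 to 2.83 FPKM in those of ACHN. Among the feedback inhibitors, 7 of 8 were tested in 769-P, where 1 rose and 0 fell beside 5.32% and 4.58% of all genes. This was *TRIM21*, a ubiquitin ligase, which rose by 0.84 ± 0.10. With the block 3 rose, among them *ISG15*, which is also counted as an effector, and 0 fell, beside 13.9% and 13.7%. *USP18*, the protease that removes ISG15 and dampens receptor signalling, was at 11.3, 12.9 and 3.73 FPKM with si-NUF2 against 2.50, 2.74 and 1.45 FPKM with si-NC (log2 fold change 1.89 ± 0.48, limma with Benjamini-Hochberg adjusted p = 0.0514, and 4.61e-06 to 0.152 over the alternatives). In all, 35 of the 41 induction and feedback genes were tested in 769-P, where 6 rose and 1 fell beside 5.32% and 4.58% of all genes. With the block 11 rose and 3 fell beside 13.9% and 13.7%, and the median log2 fold change was 0.06. Of 35 tested in ACHN, 0 were called (2 at an unadjusted p under 0.05), and with the block 1 was higher and 4 were lower beside 6.65% and 5.09% of all genes.

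The interferons themselves were near or under the limit of detection. None of 21 interferon genes passed the filter, and 15 were listed at 0 in all libraries. The 769-P si-NUF2 libraries held 65 reads of these genes in all and the si-NC libraries 33, against 0 and 1 in ACHN. *IFNL1*, a type III interferon, had 10, 6 and 4 reads with si-NUF2 and 1, 1 and 0 with si-NC in 769-P. *IFNL2* (5, 9 and 2 against 4, 0 and 0 reads) and *IFNL3* (3, 7 and 2 against 5, 1 and 0 reads) are near-identical genes whose reads may be shared. *IFNB1*, which encodes interferon beta, had 0, 4 and 1 reads against 0, 2 and 0, and 0 in all ACHN libraries. For this gene 3 reads would be 0.108 to 0.121 FPKM in the 769-P libraries and 0.0906 to 0.111 FPKM in those of ACHN. *IFNE* had 4, 4 and 4 reads against 10, 3 and 6. None of these genes was tested at this depth.

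Enzymes that build or remove the mRNA cap, the feature that IFIT1 reads, were compared as well. Of 8 genes tested in 769-P, 0 rose and 2 fell, against 5.32% and 4.58% of all genes. *CMTR2*, a cap methyltransferase, fell by 0.49 ± 0.10 and *FAM103A1*, an activator of the cap guanine methyltransferase, fell by 0.38 ± 0.09. *CMTR2* also fell in ACHN with the block, by 0.46. With the block 1 rose and 3 fell in 769-P, against 13.9% and 13.7% of all genes. Fitted changes of the 8 genes in this line were positive for 4 and negative for 4. *CMTR1*, another cap methyltransferase, was named after its values were seen and was not called without the block. In 769-P its si-NUF2 range of 13.3 to 15.9 FPKM lay above its si-NC range of 10.9 to 12.1 FPKM. The log2 pair differences of *CMTR1* there were 0.45, 0.43 and 0.13. For ACHN these pairs gave -0.02, -0.04 and -0.04, and the groups overlapped.

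The genes beside and within the cluster were compared to place the response on chromosome 10. Of 9 neighbours, 7 were tested in each line and 0 were called in either (0 and 1 at an unadjusted p under 0.05 in 769-P and ACHN, and 0 by limma-voom). With the block 1 of the 7 was called higher in 769-P, where 13.9% of all genes were, so this count is near the background. It was *LIPA*. *LIPA* was at 11.9, 15.1 and 16.6 FPKM with si-NUF2 against si-NC values of 10.6, 13.2 and 14.4 FPKM in 769-P, a fitted difference of 0.20 ± 0.15 on the log2 scale. The groups overlapped. The median log2 fold change of the neighbours was 0.09 in 769-P and 0.10 in ACHN, and *CH25H* and *IFIT1B* were too low to test.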

How the data were processed

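RNA from 12 libraries was measured by RNA sequencing. The values the authors deposited are FPKM, 1 per gene and library. The reads were filtered with fastp, and the submitters' processing notes name HISAT2 2.0.5, featureCounts 1.5.0-p3 and hg38; the annotation release and strand setting are not given in the sources used here. No counts were analysed as deposited. With the exon lengths of GENCODE release 29, the FPKM of 34797 of 36305 genes above 0 were whole multiples of 1 read (within 0.02, checked up to 2000 reads), which gave 28624650 to 37839177 reads per library. At this depth the IFIT genes had 204 to 3225 reads. The parts of counting error and of other spread between libraries in their SE were not separated.

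Groups came from the labels. Within a line, FPKM were scaled by trimmed means of log ratios (30% of ratios and 5% of levels trimmed), with factors of 0.992 to 1.01, and genes with at least 0.5 FPKM in 3 or more of a line's 6 libraries were kept. Log2(FPKM + 0.1), which understates changes of low genes, was fitted with limma 3.58.1 in R 4.3.3 (lmFit, eBayes with a trend), per line and, for the difference between lines, in 12 libraries with the interaction of siRNA and line. Adjustment was by Benjamini-Hochberg over all genes tested, and calls had an adjusted p under 0.05. The scripts were tested on simulated data.

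Replicate numbers came from the labels. Deviations from the group mean correlated within same-numbered pairs (769-P, r of 0.36, 0.27 and 0.19; ACHN, r of 0.65, 0.74 and 0.46), so the numbers were taken to pair the libraries, and a fit with the number as a block was made as an alternative. The other alternatives were median-ratio scaling, FPKM as deposited, other pseudocounts and filters, 1 fit of all libraries, and leaving out each library. The limma-voom fits on recovered reads were added after seeing the data.

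Members and gene lists were chosen with earlier results of these data known. Named genes were the members, *NUF2*, up to 3 called genes with the largest rise and fall in each list and line (in ACHN with the block), a set always named, the 10 genes most like the family and its neighbours; 2 of the genes so named are not reported here. Sequences came from RefSeq (GRCh38.p14), matched by symbol.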

Additional observations from a re-analysis of the deposited data

Results flagged for a closer look

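*IFIT2* and *IFIT3* moved in opposite directions in the 2 cell lines, with si-NUF2 above si-NC in all 3 same-numbered pairs of 769-P and below it in all 3 pairs of ACHN. The response in 769-P minus that in ACHN was 1.34 for *IFIT2* and 1.73 for *IFIT3* on the log2 scale. This difference was not tested, because the family was selected on it.

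For other genes named here, the interaction of siRNA and line passed in the limma fit with the replicate block (Benjamini-Hochberg adjusted p under 0.05), and in none of them without the block. The log2 difference, 769-P minus ACHN, was 2.91 for *OAS2*, 2.70 for *IFI44*, 2.68 for *OASL*, 2.65 for *IFI44L*, 1.90 for *HERC6*, 1.44 for *SP110*, 1.27 for *IFI16* and 1.07 for *IFI35* among the effectors and the genes most like the family. *OAS2*, *OASL*, *IFI44L*, *HERC6*, *IFI16*, *IFI35*, *DHX58* and *DDX60* were named for a pattern like that of the family, which was itself selected for the difference between the lines, so their values are a description and no independent evidence of it. *IFI44* and *SP110* were named for a large rise in 769-P, and *KRT8* for one in ACHN. Each such rise is a part of the difference, so these values are a description as well. The log2 difference was 1.54 for *DHX58* and 1.26 for *DDX60* among the sensors, 1.80 for *IRF7*, a transcription factor, and 1.81 for *USP18*, the feedback inhibitor. The keratin gene *KRT8*, a renal epithelial marker, differed the other way, by -0.44.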

How the results depend on the processing

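The 4 members kept the sign of the main value in 769-P and in the difference between lines under each alternative, with log2 fold changes in 769-P of 2.27 to 3.25 (*IFIT1*), 0.68 to 1.18 (*IFIT2*), 0.92 to 1.65 (*IFIT3*) and 0.83 to 1.34 (*IFIT5*). In ACHN *IFIT2* and *IFIT3* stayed negative, and *IFIT1* and *IFIT5* each crossed 0 once, when 1 si-NC library was left out. Counts of calls moved more. With the replicate block, calls numbered 3908 genes, 31 effectors and 14 induction genes in 769-P, 1774, 1 and 5 in ACHN, and 236, 21 and 5 for the difference between lines. By limma-voom with the block they numbered 4957, 33 and 17 in 769-P, 3317, 8 and 12 in ACHN, and 993, 34 and 11 for the difference, and limma-voom without the block called 22 effectors in 769-P. No filter gave 644 genes, 6 effectors and 2 induction genes in 769-P and 15 genes for the difference, and at least 1 FPKM in every library gave 20 effectors. A pseudocount of 0.01 gave 2 genes for the difference. All 12 libraries in 1 fit gave 717 genes and 4 induction genes in 769-P, and 167 genes and 1 induction gene in ACHN. Leaving out 1 library gave 369 to 1135 genes, 5 to 25 effectors and 2 to 11 induction genes in 769-P, and 0 to 1 genes for the difference. The 369 genes, 25 effectors and 11 induction genes came without 769-P si-NUF2 replicate 3, and the 5 effectors without replicate 2. *NUF2*, *IFI44*, *IFI16*, *SP110* and *TRAF3* kept their call in 769-P in each alternative, whereas *DHX58*, *DDX60*, *DDX58*, *MAVS*, *JAK1*, *TRIM21*, *OASL*, *CMTR2*, *FAM103A1* and *PAX8* lost it in at least 1. Centring each line kept 5 of the 10 genes most like the family. Where a filter or a left-out library changed a count, fewer or more genes or fewer libraries entered the fit, and the cause was otherwise not tested. The members had 204 to 3225 reads, and how far depth limits their values was not tested, whereas the interferon genes are limited by depth.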
